A study of Mus musculus with 6 samples.

Results

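Long noncoding RNAs (lncRNAs) that reached an FPKM of 5 or more in at least 3 of the 6 libraries were followed in a mouse kidney tubule cell line. FPKM counts fragments relative to transcript length and to the mapped fragments of the library. Of 28789 genes in the deposited table, 4614 carried a transcript type of lncRNA and none of protein coding, and 44 of these met the level. The genes were thus chosen by their measured FPKM in these libraries, and the levels given here are a description. AY036118, an rRNA-derived transcript, was left out by rule, and its type in the table was not lncRNA. Snhg genes and Gas5, which host small nucleolar RNAs (snoRNAs), made up 6 of the 44.

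The cells were TCMK1, an established line of mouse renal tubular epithelial cells, and every sample received angiotensin II (Ang II), the effector peptide of the renin-angiotensin system. The labels gave 3 control samples and 3 samples with overexpression of YOD1, a deubiquitinase of the OTU family. How YOD1 was introduced, whether controls carried an empty vector, and whether a clone was picked is stated in no source used here, and the protocol text in the labels mentions an adipose type while the other labels name TCMK1. The series set out to find pathways under YOD1 control, and poly(A) RNA was sequenced, so transcripts without a poly(A) tail are poorly covered. Nothing in the labels puts replicates in separate cultures, so every p-value here reflects the spread of these samples alone, which may be technical.

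LncRNAs are transcripts with no long open reading frame that is known to be translated, and they act, where a function is known, as RNA in the nucleus or the cytoplasm. SnoRNA host genes carry snoRNAs in their introns. The intron releases a snoRNA that guides chemical modification of ribosomal RNA, while the spliced exons are often degraded when ribosomes translate them, through nonsense-mediated decay. Neat1 builds paraspeckles, Malat1 sits in nuclear speckles, Norad binds Pumilio proteins in the cytoplasm, and Meg3 is transcribed from an imprinted locus.

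Summed FPKM ran from 314172 to 352209 per library, and lncRNA genes made up 0.462% to 0.555% of that sum. The 44 genes held 37.8% to 42.2% of the lncRNA sum in controls and 41.5% to 46.6% in YOD1 libraries. Read depth is unknown from FPKM. The first principal component, with 47.4% of the variance over all tested genes, separated the groups. Scores ran from -24.7 to -11.7 in controls and from 8.64 to 36.4 in YOD1 libraries, with YOD1 library 3 the most extreme. The share of rRNA-derived genes was 0.449% to 0.775% in controls and 2.22% to 4.07% in YOD1 libraries. Values from a fit with a common total without rRNA genes are given below. Beyond that fit, the part of this share in the differences given here was not tested. Yod1 itself stood at 0.842, 0.757 and 0.684 FPKM in controls 1, 2 and 3. It had 1.73, 7.56 and 1.86 FPKM in YOD1 libraries 1, 2 and 3, above all controls. On log2(FPKM + 1) its fold change was 1.21, without passing the limma test (adjusted p = 0.141). The authors' deposited table gives Yod1 a log2 ratio of 2.29 with q = 0.0310 and marks it as significant. Of 12 tubular epithelial markers 9 had a mean of at least 1 FPKM, while the proximal tubule genes Cubn and Slc34a1 lay under 0.1. None of 5 endothelial markers had a mean of 1 FPKM, and the leukocyte genes Ptprc and Adgre1 and the podocyte gene Wt1 lay under 0.1. Podocyte markers were not absent as a list, since 3 of 5 had a mean of at least 1 FPKM (Podxl 2.21, Nphs1 1.90 and Synpo 1.44). Summed marker levels were 671 to 785 FPKM in controls and 759 to 992 FPKM in YOD1 libraries for the tubular list. For the 4 leukocyte genes typed as protein coding they were 20.6 to 31.1 and 22.9 to 34.2 FPKM. Of these 4, Lyz2 and Cd68 had a mean of at least 1. Lyz2, a lysozyme gene, had means of 6.22 and 15.7 FPKM, and its part in the values of the lncRNAs was not tested. In bulk RNA, fewer cells that express a gene and less of its RNA per cell cannot be told apart.

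GENCODE M21 places 36 snoRNA genes inside 9 of the 44 genes. Gas5 holds 10, Snhg1 holds 8 and Snhg12 holds 5. Snhg17, Zfas1 and 2410006H16Rik hold 3 each, 1110038B12Rik holds 2, and Snhg15 and Snhg8 hold 1 each. So 3 hosts lie outside the Snhg prefix and Gas5. The 3 snoRNA genes of 2410006H16Rik lie fully inside no annotated exon of it, while each of the others lies inside an exon of at least 1 annotated transcript of its host. SnoRNAs lack a poly(A) tail, and the FPKM values used here are those of the host genes. The sequences below are snoRNAs of hosts that stood higher in all YOD1 libraries (Snhg12, Snhg15, Snhg1) and of hosts whose groups overlapped (Gas5, Snhg8, 2410006H16Rik), from the GENCODE M21 transcripts. Capitals mark the C box (TGATGA) and D box (CTGA) of methylation guides, or the ACA triplet near the end of pseudouridylation guides.
Snord99 in Snhg12: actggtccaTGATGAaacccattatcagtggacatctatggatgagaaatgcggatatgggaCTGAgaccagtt
Snora61 in Snhg12: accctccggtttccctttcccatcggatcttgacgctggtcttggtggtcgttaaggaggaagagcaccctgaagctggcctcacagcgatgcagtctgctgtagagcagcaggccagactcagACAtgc
Snora9 in Snhg15: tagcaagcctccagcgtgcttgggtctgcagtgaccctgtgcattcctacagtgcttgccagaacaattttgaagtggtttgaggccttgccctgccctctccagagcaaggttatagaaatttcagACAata
Gm25855 in Snhg1: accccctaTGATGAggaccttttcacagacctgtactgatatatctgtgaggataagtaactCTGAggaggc
Snord47 in Gas5: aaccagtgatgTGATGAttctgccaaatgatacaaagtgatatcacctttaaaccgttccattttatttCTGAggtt
Snora24 in Snhg8: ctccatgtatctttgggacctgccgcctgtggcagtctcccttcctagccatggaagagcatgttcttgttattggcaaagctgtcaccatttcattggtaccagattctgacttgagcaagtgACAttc
Snord49a in 2410006H16Rik: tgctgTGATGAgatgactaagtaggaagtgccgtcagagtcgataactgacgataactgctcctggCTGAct
A C box was counted only near the start of a sequence and a D box only near its end. By this rule, 8 of the Gas5 snoRNAs and 5 of the Snhg1 snoRNAs had both the C and the D box. Gm24453 in Snhg1 held the letters of both, with those of the C box further from its start, and was not counted. In Snhg12, Snord99 had them, Snora61 and both Snora16a copies had the triplet of the other class, and Snora44 read ATA at that place. Snora9 and Snora24, the only snoRNAs of Snhg15 and Snhg8, had the triplet too. Hosts of either class were thus found among the genes that stood higher and among those whose groups overlapped.

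Many snoRNA host genes are known for transcripts that begin with a run of pyrimidines, as do those of ribosomal proteins. RefSeq promoter sequences (GRCm38.p6) matched 21 of the 44 genes, among them all 9 hosts. The windows below hold 20 bases before and 30 after an annotated start, with the pyrimidine run at the start in capitals. For Gas5, Snhg17 and 1110038B12Rik the start with a run is shown, and their other annotated start had none. The start of Zfas1 is not shown.
Snhg12 start: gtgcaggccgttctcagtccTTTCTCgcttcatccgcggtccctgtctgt
Snhg17 start: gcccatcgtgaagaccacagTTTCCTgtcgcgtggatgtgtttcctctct
Snhg8 start: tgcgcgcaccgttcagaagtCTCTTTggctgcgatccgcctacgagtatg
Gas5 start: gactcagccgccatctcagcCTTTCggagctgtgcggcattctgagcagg
1110038B12Rik start: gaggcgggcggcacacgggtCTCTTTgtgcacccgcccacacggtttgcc
2410006H16Rik start: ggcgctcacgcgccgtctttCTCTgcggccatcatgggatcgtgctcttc
Snhg1 start: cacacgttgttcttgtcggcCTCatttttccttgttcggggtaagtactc
Snhg15 start: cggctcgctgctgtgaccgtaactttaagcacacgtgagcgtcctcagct
A run of at least 4 pyrimidines stood at an annotated start of 6 of the 9 hosts. It stood at 6 of the 12 annotated starts of hosts and at 0 of the 13 starts used for the other genes. Of all 32851 promoters, 6.86% had it. Of 26 listed protein-coding snoRNA hosts, 18 had a promoter sequence, and the run stood at 2 of these 18 promoters (11.1%). All these shares rest on annotated starts, and which starts the cells used is not known from FPKM. Snhg12, Snhg17, Snhg8 and Gas5 carried such a run, and of these only Snhg12 passed the test of expression. Snhg1 had a run of 3, and the annotated starts of Snhg15 and Zfas1 had none. Over 300 bases of promoter, with both strands searched, the E box CACGTG was in 1 of 25 promoters of the lncRNAs, that of Snhg15, against 7.15% of all promoters. The GC box GGGCGG was in 15 of 25 (35.7% of all), and TATAAA was in 7 of 25 (13.6% of all). A STAT-type TTCNNNGAA was in 0 of 25 (8.30% of all).

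Levels of the 44 lncRNAs spanned a mean of 5.17 FPKM (Snhg15) to 75.2 FPKM (ENSMUSG00000121068) over the 6 libraries, with a median of 9.11, and 8 genes had a mean above 20. All 6 libraries reached 5 FPKM for 34 genes, 5 libraries did for 7 genes, and exactly 3 did for 3 genes. Gm17201 and ENSMUSG00000121093 entered through the controls alone and Snhg15 through the YOD1 libraries alone, so for these 3 the lack of overlap between groups followed from the limit. By the third highest FPKM, the genes just inside the limit were Gm17201 at 5.34, ENSMUSG00000121093 at 5.47, Gm47882 at 5.58 and Gm53 at 5.63. Just outside it were 1110006O24Rik at 4.93, Gm29253 at 4.81, 3300005D01Rik at 4.80 and Snhg16 at 4.63. The table gave 14 of the 44 an identifier only, with no symbol, and none of these 14 was in GENCODE M21.

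**Figure D1:**
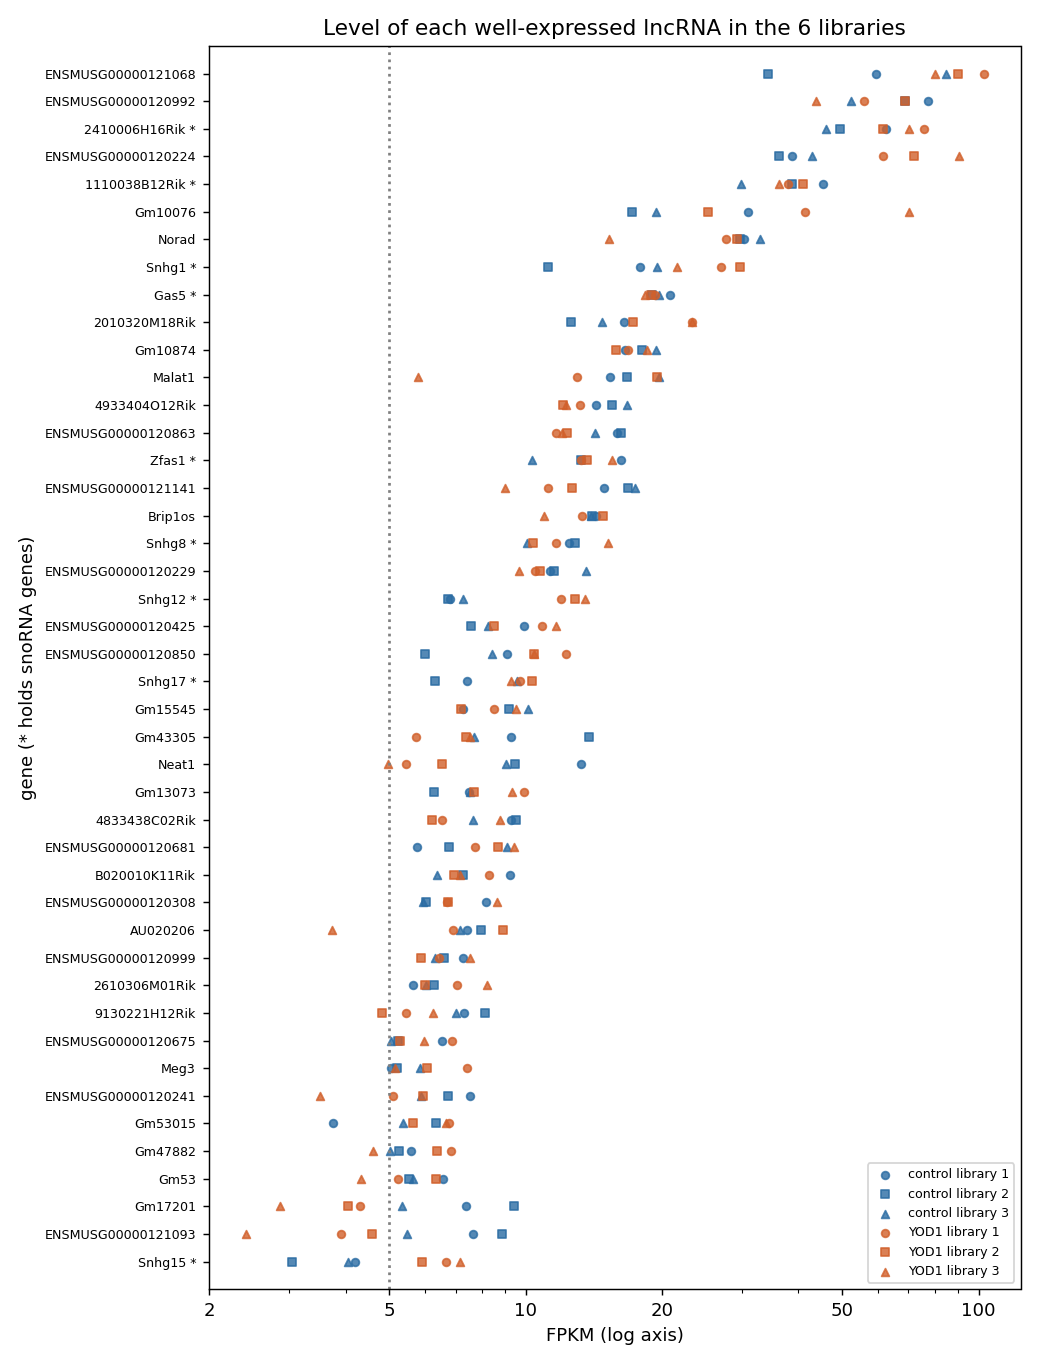
FPKM of each of the 44 lncRNAs (rows) on a log axis, with 1 point for each library, controls in blue and YOD1 libraries in orange, and the limit of 5 FPKM as a dotted line; asterisks mark the 9 genes that hold snoRNA genes. Most rows interleave both colours, Snhg12 and ENSMUSG00000120224 show all orange points to the right of the blue ones, and Gm17201 and ENSMUSG00000121093 the reverse.

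Few of these lncRNAs differed between YOD1 overexpression and control beyond the spread of replicates. Snhg12, which hosts snoRNAs, and ENSMUSG00000120224, a transcript of unknown function, rose to 1.85 and 1.91 times their control mean. None passed the test in the lower direction. Neat1 had the lowest p of the genes with lower means, at 0.533 of its control level, and did not pass. The snoRNA hosts Snhg1 and Snhg15 lay above all controls in each YOD1 library without passing, and Gas5 differed little.

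The test was limma on log2(FPKM + 1), two-sided, with Benjamini-Hochberg adjustment over the 11483 genes that reached 1 FPKM in 3 or more libraries, called at an adjusted p under 0.05. All 44 lncRNAs were among the tested genes. The test called 2 of the 44, both higher, where it called 0.479% of all tested genes, 0.444% higher and 0.0348% lower. At an unadjusted p under 0.05 there were 9 higher and 7 lower, against 7.87% and 13% of all tested genes. These counts include Snhg15, Gm17201 and ENSMUSG00000121093, which met the level limit through a single group. Among the 34 lncRNAs at 5 FPKM in all libraries there were 8 higher and 3 lower. Groups did not overlap for 7 genes with higher and 10 with lower YOD1 values, against 9.77% and 19.1% of all tested genes, and 1 of the 7 and 2 of the 10 owed this to the level limit. Log2 fold changes were above 0 for 22 and below 0 for 22, with a median of 0.01, where 36.4% of all tested genes were above 0 and the median was -0.10. Protein-coding genes at the same level limit had a median of -0.08, and 0.473% of the 6558 were called. Of the 248 tested lncRNA genes under the level limit, 0.403% were called. For the 34 lncRNAs at 5 FPKM in all libraries, 19 were above 0 and 15 below, with a median of 0.07.

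**Figure D2:**
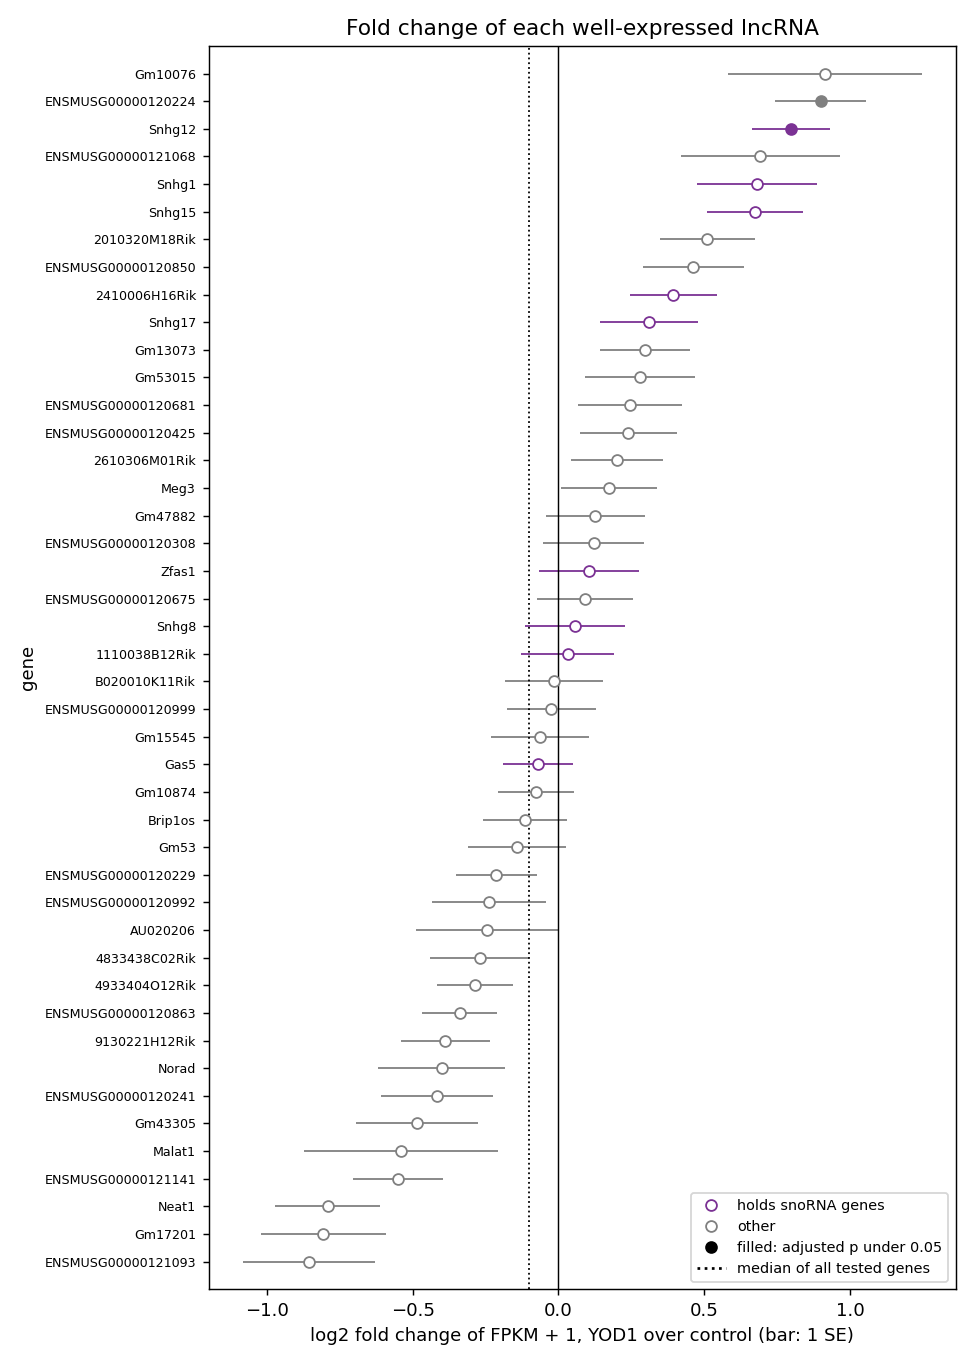
Log2 fold change of FPKM + 1 (YOD1 over control, with 1 SE as bar) for each of the 44 lncRNAs; purple marks the 9 genes that hold snoRNA genes, filled points passed limma at an adjusted p under 0.05, and the dotted line is the median of all tested genes. The filled points are ENSMUSG00000120224 at 0.90 and Snhg12 at 0.80, and 8 of the 9 purple points lie above 0.

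Among the hosts, Snhg12 stood at 6.79, 6.74 and 7.28 FPKM in controls 1, 2 and 3 and at 11.99, 12.9 and 13.6 FPKM in YOD1 libraries 1, 2 and 3. Every YOD1 library lay far above every control, and the replicates of each group lay close together. Snhg12 rose from 6.94 ± 0.30 to 12.8 ± 0.78 FPKM (mean ± SD, n = 3 each), which is 0.80 in log2 fold change (SE 0.13, limma adjusted p = 0.0416). The call ended after correction for transcript length and GC content (0.70, limma adjusted p = 0.0661) and with a common total without rRNA genes (limma adjusted p = 0.0793) or no filter on low values (limma adjusted p = 0.188). It also ended without YOD1 library 1 or 2 or without control 1 or 2, with limma adjusted p from 0.0971 to 0.181, while the log2 fold change stayed between 0.76 and 0.84.

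Snhg1, which holds 8 snoRNA genes, had 17.9, 11.2 and 19.5 FPKM in the controls and 27.0, 29.7 and 21.6 FPKM in the YOD1 libraries. The groups did not overlap, but control 3 and YOD1 library 3 were close. Its log2 fold change was 0.68 (SE 0.21, limma adjusted p = 0.136), and with 1 library left out it lay between 0.45 and 0.82. Snhg15, host of Snora9, had 4.20, 3.04 and 4.06 FPKM in controls and 6.68, 5.89 and 7.16 FPKM in YOD1 libraries. The YOD1 values were all above the controls, as the level limit required. Its log2 fold change was 0.67 (SE 0.16, limma adjusted p = 0.102).

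Snhg17 had 7.42, 6.31 and 9.58 FPKM in controls and 9.71, 10.3 and 9.26 FPKM in YOD1 libraries, where control 3 lay inside the YOD1 range (log2 fold change 0.31, SE 0.17, limma adjusted p = 0.302). Snhg8, host of Snora24, had 12.5, 12.9 and 10.1 FPKM in controls and 11.7, 10.4 and 15.2 FPKM in YOD1 libraries. The groups overlapped, with the highest value in YOD1 library 3, and the log2 fold change of 0.06 (SE 0.17, limma adjusted p = 0.861) turned to -0.087 without that library. It was also below 0 without control 3 (-0.043) and after length and GC correction (-0.077).

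Gas5, a host of 10 snoRNA genes that accumulates when growth stops, lay in a narrow range in all libraries. It had 20.8, 18.98 and 19.7 FPKM in controls and 19.3, 18.9 and 18.3 FPKM in YOD1 libraries. The groups overlapped. Gas5 gave a log2 fold change of -0.07 (SE 0.12, limma adjusted p = 0.750), which became 0.036 with median-ratio scaling. Zfas1, the host of Snord12, had 16.2, 13.2 and 10.3 FPKM in controls and 13.3, 13.7 and 15.5 FPKM in YOD1 libraries, all within the control range (log2 fold change 0.11, SE 0.17, limma adjusted p = 0.737). Without control 3 its value was -0.050.

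2410006H16Rik, host of Snord49a, Snord49b and Snord65, was among the 3 lncRNAs of highest mean. It had 62.5, 49.3 and 46.0 FPKM in controls and 75.9, 61.4 and 70.1 FPKM in YOD1 libraries. Only control 1 and YOD1 library 2 overlapped. Its log2 fold change was 0.39 (SE 0.15, limma adjusted p = 0.191), and 0.17 after length and GC correction. 1110038B12Rik, host of Snord52, had means of 38.0 and 38.4 FPKM and overlapping groups (log2 fold change 0.03, limma adjusted p = 0.921).

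As a group, the 9 hosts had 8 log2 fold changes above 0 and 1 below, a median of 0.31 (0.17 after length and GC correction), and 1 call. The 6 of the Snhg prefix and Gas5 had 5 above and 1 below, with a median of 0.49. Without Snhg15, whose lack of overlap followed from the level limit, these medians were 0.21 for 8 hosts and 0.31 for 5 by name. The other 35 lncRNAs had 14 above and 21 below, with a median of -0.08 and 1 call. Without Gm17201 and ENSMUSG00000121093, which entered through the controls alone, 33 were left, 14 above and 19 below, with a median of -0.06. In YOD1 libraries 1, 2 and 3 the median deviation from the control mean was 0.31, 0.23 and 0.35 (log2) for the hosts, and -0.08, -0.01 and -0.06 for the other lncRNAs. In controls 1, 2 and 3 it was 0.13, -0.06 and -0.01 for the hosts, and 0.04, -0.02 and -0.04 for the others. In control 1, as in each YOD1 library, 7 of the 9 hosts lay above the control mean. The difference between hosts and other lncRNAs was not tested. Snhg genes under the level limit were read beside them: 5 were tested, with log2 fold changes of 0.79 for Snhg20, 0.59 for Snhg16, 0.30 for Snhg6, 0.13 for Snhg4 and 0.08 for Snhg5, none of which passed limma. Snhg3, too low to be tested, went the other way, with means of 1.23 and 0.698 FPKM.

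**Figure D3:**
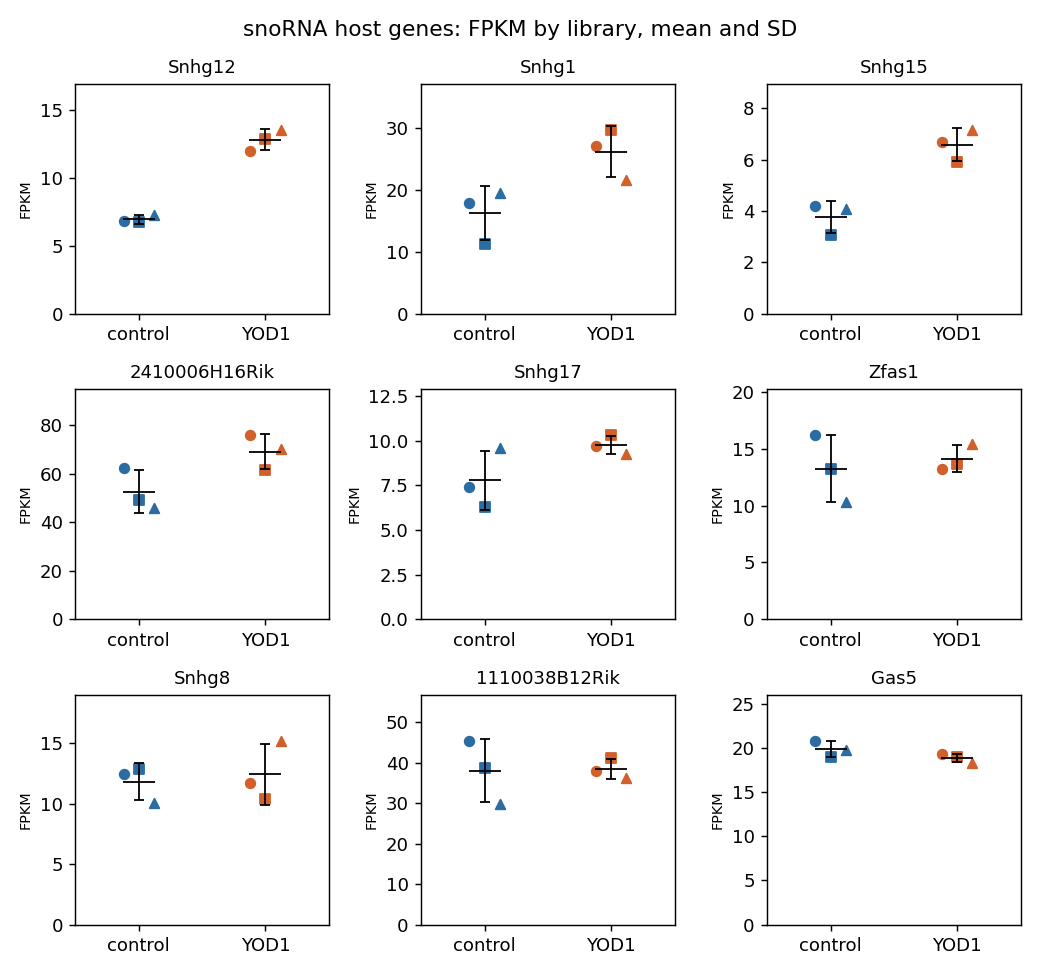
FPKM of the 9 snoRNA hosts in each library (points), with the group mean and SD (n = 3 each) as lines, every axis from 0. Snhg12, Snhg1 and Snhg15 show no overlap between control and YOD1 libraries, and the other 6 overlap.

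The machinery that acts on snoRNAs and their hosts was described from lists chosen for the topic. Of 26 protein-coding snoRNA hosts, 18 had a log2 fold change above 0 and 8 below, with a median of 0.12. Their extremes by p were Hspa8, a heat shock cognate chaperone (256 and 139 FPKM, log2 fold change -0.90, limma adjusted p = 0.088), and Rps3, a ribosomal protein (336 and 544 FPKM, 0.69, limma adjusted p = 0.103). Of 8 core proteins of snoRNA particles, 5 were above 0 and 3 below, with a median of 0.22. Gar1, of the pseudouridylation particle, had means of 17.99 and 27.8 FPKM (0.61, limma adjusted p = 0.098), and Fbl, the methyltransferase of the other class, 50.9 and 66.9 FPKM (0.39, limma adjusted p = 0.149). Of 9 assembly factors, 7 were above 0, with a median of 0.23 that was 0.07 after length and GC correction. None of the genes on these lists passed limma.

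Nonsense-mediated decay factors had 4 log2 fold changes above 0 and 7 below, with a median of -0.06, and the exon junction complex had 2 above and 2 below. Upf3b, which links the junction complex to decay, stood at 1.65 and 0.884 FPKM (log2 fold change -0.50, limma adjusted p = 0.140). Nuclear RNA exosome genes and cofactors had 7 above and 8 below. Groups did not overlap for 5 higher and 1 lower of these 15, against 9.77% and 19.1% of all tested genes. Exosc4, an exosome ring subunit, had the lowest p of that list, with means of 54.6 and 96.9 FPKM (0.84, limma adjusted p = 0.061). No gene of these lists passed.

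Among lncRNAs with a known nuclear or cytoplasmic role, Neat1 had 13.3, 9.45 and 9.03 FPKM in controls and 5.43, 6.53 and 4.97 FPKM in YOD1 libraries. All YOD1 libraries lay below all controls, and control 1 was the highest. Neat1 had means of 10.6 ± 2.34 and 5.64 ± 0.80 FPKM (mean ± SD, n = 3 each), which is -0.79 in log2 fold change (SE 0.18, limma adjusted p = 0.0905). With 1 library left out that value ranged from -0.89 to -0.63. Length and GC correction, which used a Neat1 transcript of 20771 bases, gave -0.53. Since poly(A) RNA was sequenced, any form of Neat1 or Malat1 without a poly(A) tail would be poorly covered by these values.

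Malat1 had 15.3, 16.7 and 19.7 FPKM in controls and 13.0, 19.5 and 5.77 FPKM in YOD1 libraries. YOD1 library 3 was far below the rest and YOD1 library 2 was inside the control range. Malat1 gave a log2 fold change of -0.54 (SE 0.33, limma adjusted p = 0.356), -0.10 without YOD1 library 3 and -0.29 after length and GC correction. Norad, expressed at 30.3, 29.8 and 32.8 FPKM in controls, had 27.7, 29.3 and 15.3 FPKM in YOD1 libraries. The YOD1 values were all lower, yet those of libraries 1 and 2 lay close to the controls and library 3 stood apart, as with Malat1. Norad gave a log2 fold change of -0.40 (SE 0.22, limma adjusted p = 0.308), which was -0.11 without YOD1 library 3 and -0.23 after length and GC correction.

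Meg3 had 5.05, 5.19 and 5.83 FPKM in controls and 7.44, 6.06 and 5.15 FPKM in YOD1 libraries. The groups overlapped through YOD1 library 3. Meg3 gave a log2 fold change of 0.17 (SE 0.17, limma adjusted p = 0.554), 0.39 after length and GC correction and 0.05 to 0.28 with 1 library left out. Of 36 listed lncRNAs with a known role, 13 were tested, 4 with a log2 fold change above 0 and 9 below, and none passed. Outside the 44, the lowest p among them were those of Oip5os1 (2.63 and 1.77 FPKM, log2 fold change -0.40) and Firre (2.07 and 1.38 FPKM, -0.38), with limma adjusted p of 0.196 and 0.258.

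Proteins of the bodies in which Neat1 and Malat1 reside were read beside them. Paraspeckle proteins had 6 log2 fold changes above 0 and 6 below, with a median of 0.00. Sfpq, which binds Neat1, stood at 48.9 and 34.7 FPKM (-0.49, limma adjusted p = 0.164), and Nudt21, a 3′ processing factor, at 17.7 and 27.0 FPKM (0.56, limma adjusted p = 0.186). All 12 nuclear speckle proteins lay below 0 in log2 fold change (median -0.39, or -0.24 after length and GC correction), and 4 of them had groups that did not overlap, all lower (19.1% of all tested genes). None passed limma. Srsf5, a splicing factor, had the lowest p (39.5 and 23.1 FPKM, -0.74, limma adjusted p = 0.093).

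Transcripts without a symbol included the other gene that passed. ENSMUSG00000120224 had 38.7, 36.3 and 42.8 FPKM in controls and 61.6, 72.2 and 90.7 FPKM in YOD1 libraries. All YOD1 libraries lay well above all controls, with YOD1 library 3 highest. ENSMUSG00000120224 rose from 39.3 ± 3.28 to 74.8 ± 14.7 FPKM (mean ± SD, n = 3 each), which is 0.90 in log2 fold change (SE 0.16, limma adjusted p = 0.0476). It was not called with a common total without rRNA genes (limma adjusted p = 0.054), with a pseudocount of 0.1 (0.0588), with no filter on low values (0.260), without YOD1 library 2 (0.0881), or without control 1 (0.143) or control 2 (0.188). Length and GC could not be corrected for it, since no sequence of it was used here.

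ENSMUSG00000121093 had 7.65, 8.86 and 5.47 FPKM in controls and 3.91, 4.59 and 2.41 FPKM in YOD1 libraries. The groups did not overlap, and this gene entered through its control values. It had the lowest log2 fold change of the 44, -0.85 (SE 0.23, limma adjusted p = 0.116). ENSMUSG00000121141 had 14.9, 16.8 and 17.4 FPKM in controls and 11.2, 12.6 and 9.01 FPKM in YOD1 libraries, which lay below all controls (log2 fold change -0.55, SE 0.15, limma adjusted p = 0.124).

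ENSMUSG00000120992, among the 3 highest in mean, had 77.5, 68.7 and 52.2 FPKM in controls and 55.8, 68.7 and 43.8 FPKM in YOD1 libraries. The groups overlapped widely (log2 fold change -0.24, SE 0.19, limma adjusted p = 0.484). Over the 14 genes without a symbol, 7 log2 fold changes were above 0 and 7 below, with a median of 0.03.

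Several of these lncRNAs lie on or next to protein-coding genes or repeat their sequence, and the strand of the libraries is not stated, so reads of an lncRNA and its partner may have been mixed. Of the 30 genes in GENCODE M21, 7 overlap a protein-coding gene, in each case on the opposite strand, and 6 others lie under 1000 bases from one. The table describes 5 of the genes without a symbol as antisense or sense intronic to a coding gene. Of the 30, 7 share at least 95% identity over at least 30% of their transcript with a coding gene of the table, and Gm53015 does so with a coding transcript whose gene is not analysed here. In all, 17 of the 44 overlap a coding gene, are described so or share sequence, and their values are uncertain in that respect. The genes without a symbol, ENSMUSG00000120224 among them, were not in GENCODE M21. They were not searched for overlap or shared sequence, so 17 is a lower bound. Norad shares 99.2% identity over 51.6% of its transcript with Gm7292, an lncRNA gene with means of 2.16 and 2.00 FPKM, so its value is uncertain too.

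ENSMUSG00000121068, described as antisense to Gpx1, was the lncRNA of highest mean. It had 59.3, 34.2 and 84.7 FPKM in controls and 103, 90.03 and 80.3 FPKM in YOD1 libraries. Control 3 lay inside the YOD1 range, and the controls spread widely (log2 fold change 0.69, SE 0.27, limma adjusted p = 0.203). Gpx1, glutathione peroxidase, had 31.3, 36.2 and 36.2 FPKM in controls and 47.1, 53.8 and 59.5 FPKM in YOD1 libraries. Its groups did not overlap (0.61, SE 0.13, limma adjusted p = 0.0811).

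Gm17201 overlaps Ankrd52, a regulatory ankyrin subunit of a phosphatase, on the opposite strand, with 99.6% identity over 61.0% of its transcript. It had 7.39, 9.43 and 5.34 FPKM in controls and 4.32, 4.06 and 2.87 FPKM in YOD1 libraries. All YOD1 values were below all controls (log2 fold change -0.81, SE 0.21, limma adjusted p = 0.116). Ankrd52 had 28.5, 37.4 and 27.2 FPKM in controls and 17.7, 20.3 and 17.4 FPKM in YOD1 libraries, also without overlap (-0.71, SE 0.15, limma adjusted p = 0.0783). Reads of this pair cannot be told apart over the shared part without strand.

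2010320M18Rik lies 102 bases from Pik3r2, a regulatory subunit of phosphoinositide kinase, on the opposite strand (GRCm38). It had 16.5, 12.6 and 14.7 FPKM in controls and 23.3, 17.3 and 23.3 FPKM in YOD1 libraries. All YOD1 values lay above the controls (log2 fold change 0.51, SE 0.16, limma adjusted p = 0.147), and the value was 0.33 after length and GC correction. Pik3r2 had means of 57.8 and 60.9 FPKM (0.08, limma adjusted p = 0.741).

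Gm43305, with no coding gene nearer than 21806 bases in GRCm38, had 9.26, 13.8 and 7.68 FPKM in controls and 5.73, 7.37 and 7.53 FPKM in YOD1 libraries. The groups did not overlap, narrowly so between control 3 and YOD1 library 3 (log2 fold change -0.48, SE 0.21, limma adjusted p = 0.231). Its nearest coding gene, Abhd4, a hydrolase of lipids, had means of 43.6 and 33.9 FPKM (-0.36, limma adjusted p = 0.251).

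Neighbours of the hosts were read in the same way. Trnau1ap, a factor for selenocysteine tRNA that lies 739 bases from Snhg12 on the opposite strand, had means of 13.8 and 19.7 FPKM (log2 fold change 0.48, limma adjusted p = 0.1204). Slc3a2, the heavy chain of amino acid transporters 106 bases from Snhg1 on the opposite strand, had 183 and 270 FPKM (0.55, limma adjusted p = 0.115). Lrrc75a, 77 bases from 2410006H16Rik, had 8.37 and 6.43 FPKM (-0.35, limma adjusted p = 0.275), the opposite sign. Znfx1, which overlaps Zfas1, had 9.41 and 7.06 FPKM (-0.39, limma adjusted p = 0.339). Frmd8, the nearest coding gene to Neat1, had 46.2 and 34.6 FPKM (-0.39, limma adjusted p = 0.232).

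The following genes were chosen after their values were seen. Gm10076 had the largest log2 fold change of the 44, with 31.0, 17.2 and 19.4 FPKM in controls and 41.3, 25.3 and 70.1 FPKM in YOD1 libraries. The groups overlapped through control 1 and YOD1 library 2, and the spread was wide (0.91, SE 0.33, limma adjusted p = 0.179). RefSeq lists Gm10076 as a pseudogene, and its transcript is 99.5% identical over 99.7% of its length to that of Rpl41, a ribosomal protein gene on the same strand sense. Rpl41 had means of 289 and 324 FPKM (0.16, limma adjusted p = 0.548). Gm10874 shares 98.8% identity over 69.5% with Got2, a mitochondrial aminotransferase, in the opposite sense, and had means of 18.02 and 17.05 FPKM where Got2 had 193 and 193 FPKM. The sources used here do not say how reads of such copies were split.

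**Figure D4:**
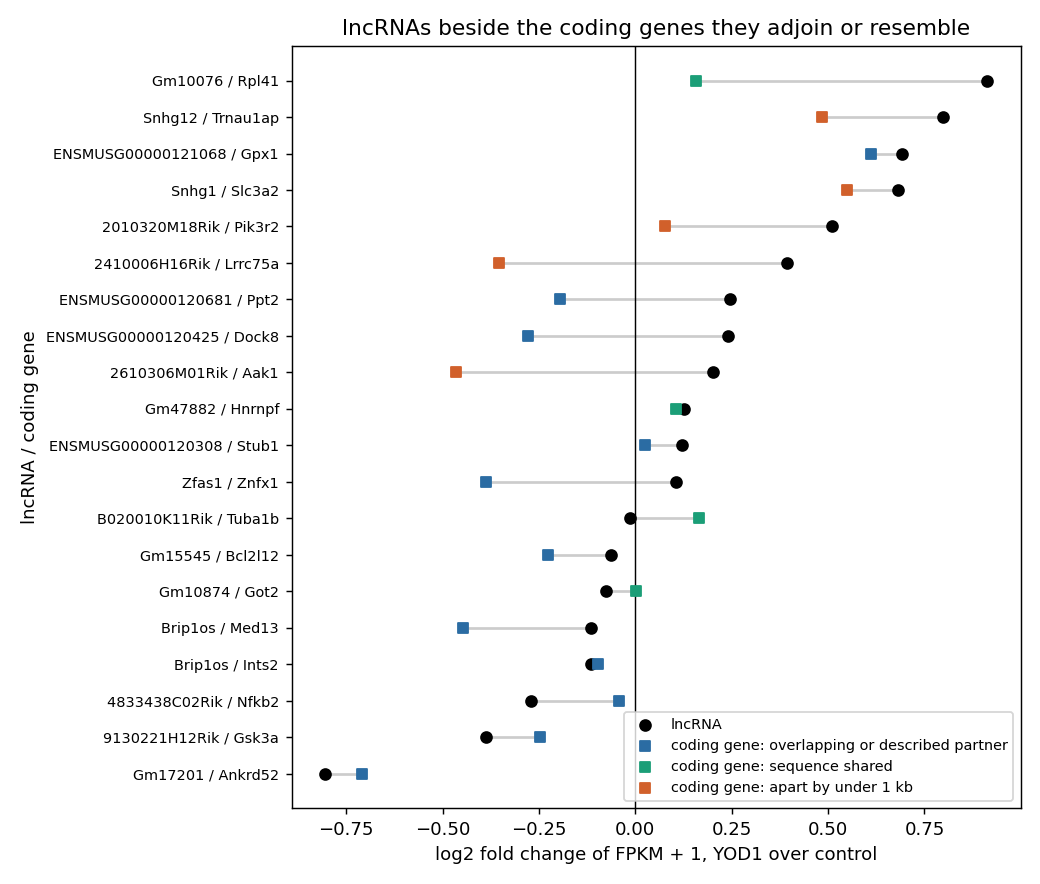
Log2 fold change of FPKM + 1 (YOD1 over control) of lncRNAs (black circles) and of the coding gene that each overlaps, is described as partner of, resembles or lies near (coloured squares). Gm17201 with Ankrd52 and ENSMUSG00000121068 with Gpx1 lie close together, while Gm10076 with Rpl41 and 2410006H16Rik with Lrrc75a lie far apart.

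The remaining lncRNAs with groups that did not overlap were ENSMUSG00000120850 and Gm13073, higher in YOD1 libraries (log2 fold changes 0.46 and 0.30), and ENSMUSG00000120229, 4933404O12Rik, ENSMUSG00000120863 and 9130221H12Rik, lower (-0.21, -0.29, -0.34 and -0.39). Their limma adjusted p ran from 0.187 to 0.380. Also chosen after their values were seen, Brip1os, AU020206 and ENSMUSG00000120241 had their lowest value in YOD1 library 3, as Malat1 and Norad did, at 10.95, 3.73 and 3.52 FPKM. Further lncRNAs had their lowest value there too, among them Neat1, Gm17201, ENSMUSG00000121093 and ENSMUSG00000121141. Snhg12 and ENSMUSG00000120224 had their highest value in that library. The other lncRNAs, not described singly, had overlapping groups and log2 fold changes between -0.27 and 0.28.

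Transcript length moved with the fold change over all genes: over 10 bins of length, the median went from 0.09 (log2) for the shortest to -0.30 for the longest. Of the 30 lncRNAs with a length, 7 were in the shortest bin and 3 in the longest, and their median length was 2328.5 bases against 3018.5 over all tested genes. The part of length in the values of single genes is given above by their corrected values. Only 68.2% of the 44 had a length, so a check over the whole group is void.

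**Figure D5:**
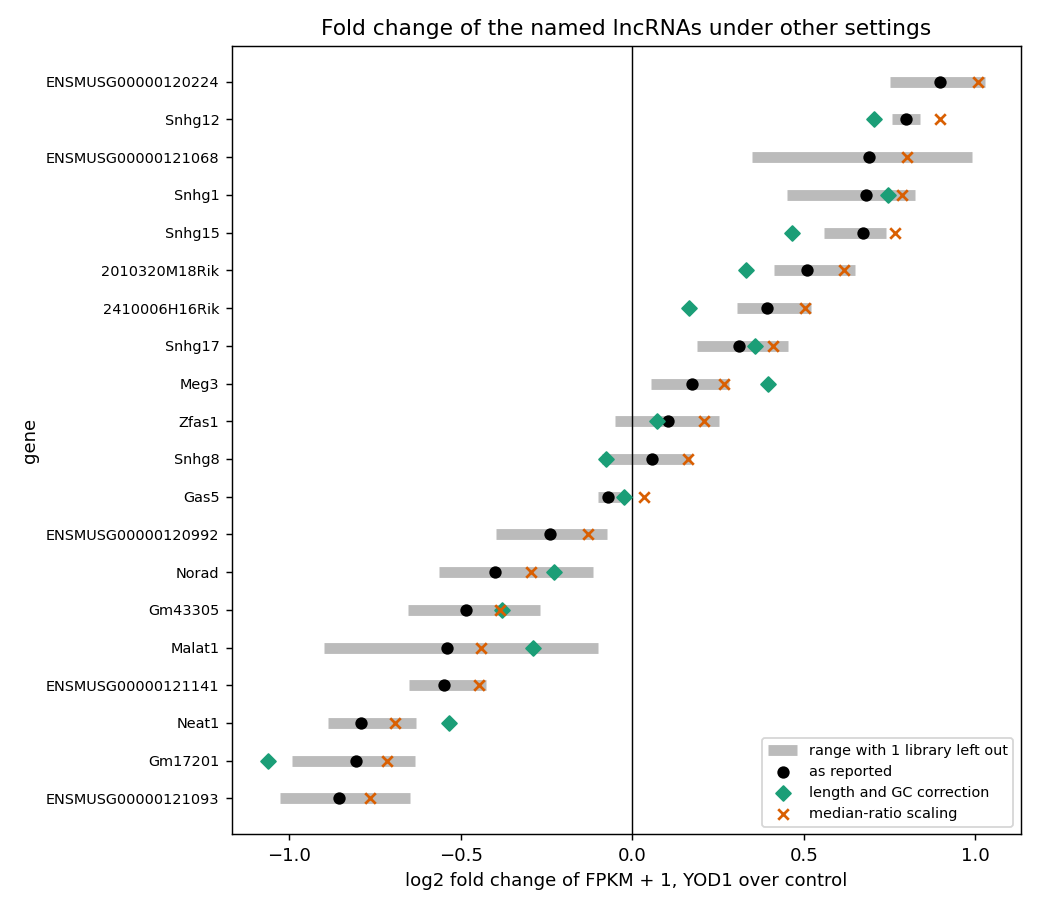
Log2 fold change of FPKM + 1 (YOD1 over control) of the 20 named lncRNAs as reported (black), after length and GC correction (green), with median-ratio scaling (orange crosses) and over the fits with 1 library left out (grey bar). Snhg8, Gas5 and Zfas1 reach both sides of 0, and Malat1 has the widest grey bar, from -0.90 to -0.10.

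The authors' deposited table, whose test the sources used here do not name, lists 7 of the 44 with q under 0.05, against 1.97% of all 28789 genes, 4.16% of the 11483 tested genes and 4.57% of the 7061 genes of any type at the same level limit. In the authors' deposited table these are Snhg12 (q = 6.94e-05), ENSMUSG00000120224 (0.000457), Neat1 (0.00343), Snhg15 (0.00493), ENSMUSG00000121093 (0.0194), Snhg1 (0.0218) and Gm10076 (0.0458). The authors' deposited table marks only ENSMUSG00000121093 and Gm10076 of these as significant, and the sources used here do not state the rule of that mark. Their deposited log2 ratios were -1.01 and 1.02, while those of the unmarked genes lay between -0.91 (Neat1) and 0.93 (ENSMUSG00000120224). By limma, Snhg12 and ENSMUSG00000120224 passed and the other 5 of the 7 did not. Snhg15 and ENSMUSG00000121093 met the level limit through a single group. Of the 34 lncRNAs at 5 FPKM in all libraries, 4 had a deposited q under 0.05.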

How the data were processed

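RNA-seq of 6 samples was analysed, 3 control and 3 YOD1, grouped by title. The authors deposited 1 table with FPKM for every gene in each library, per the file headers. StringTie 1.3.0, HISAT2 2.0, Bowtie 0.12.2 and mm8 are named, without role or order, in the submitters' processing notes. It also has the authors' ratio (fold) between groups, that ratio in log2, and p-values with q-values, per the file headers. No source used here names their test. The design named a count test for count data; the table holds FPKM, so limma 3.58.1 in R 4.3.3 was used on log2(FPKM + 1), with an intensity trend and a filter of 1 FPKM in 3 libraries, after tests on simulated data. This scale understates the change of low genes. With 3 against 3 libraries an exact permutation p cannot be below 0.1, so none was computed. The members and lists were chosen with earlier results of these data known.

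Named genes were Snhg genes and Gas5, lncRNAs on the lists of known lncRNAs and snoRNA hosts, those past the test, in each direction the 5 largest changes among genes without overlap, the 3 of highest mean, their nearest coding genes, and up to 4 genes of lowest p per list. Lengths, GC, hosted snoRNAs and neighbours came from GENCODE M21 (GRCm38), while the notes name mm8, so coordinates are left out. The length and GC correction fitted splines with 4 degrees of freedom to each library. Shared sequence was found with BLAST 2.17.0. Other alternatives were no filter, a filter at 5 FPKM, a pseudocount of 0.1, median-ratio scaling, a common total without rRNA genes, the replicate number as a term, each library left out, and a required fold change of 1 (log2, either direction). Pairs of libraries had 0 to 6 identical values above 0. Markers of fibroblasts summed to 12.4 to 15.4 FPKM in controls and 6.40 to 14.0 in YOD1 libraries. Scripts ran in Python 3.11.15 (matplotlib 3.10.9, pandas 2.3.3, numpy 2.4.6). Unused columns of per-sample values: 0.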

Additional observations from a re-analysis of the deposited data

How the results depend on the processing

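Of all tested genes 55 passed, and 32 did with a common total without rRNA genes, 20 with length and GC correction, 169 with median-ratio scaling, 0 without a filter (3427 at an unadjusted p under 0.05 in limma) and 0 with the replicate block and length and GC correction together (2499 at an unadjusted p under 0.05 in limma). With 1 library left out the count ran from 19 to 242: 132 without YOD1 library 3, 31 without control 1, 19 without control 2 and 242 without control 3. Of the 44 lncRNAs 2 passed. With the pseudocount of 0.1 there was 1 (Snhg12). The count was 0 with the common total (17 at an unadjusted p under 0.05 in limma), length and GC correction (10 of 30), no filter (14), the replicate block (16, with limma adjusted p of 0.0833 for Snhg12 and 0.0563 for ENSMUSG00000120224), the block with length and GC correction (10 of 30) and a required log2 fold change of 1. With 1 library left out it was 0 to 2: 0 without control 1, control 2 or YOD1 library 2, and 1 (ENSMUSG00000120224) without YOD1 library 1. With the filter at 5 FPKM and with median-ratio scaling it was 2. The cause was not tested.

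Signs of the 20 named lncRNAs (15 of them where length and GC were corrected, since 5 had no sequence used here) held except for Snhg8 (-0.077 after length and GC correction, with or without the replicate block, -0.087 to 0.17 with 1 library left out), Gas5 (0.036 with median-ratio scaling) and Zfas1 (-0.050 to 0.25 with 1 library left out). Median-ratio scaling moved the median of all genes from -0.10 to -0.01. A limit of 5 FPKM in all libraries kept 34 lncRNAs, and a mean of 5 gave 46. The labels do not state that replicate numbers pair the samples. Deviations from the group mean, over all tested genes, correlated with r of 0.30, -0.12 and -0.11 for the 3 pairs with the same number. For pairs with different numbers r ran from -0.41 to 0.34. With 3 samples in each group these values cannot decide whether the numbers mark pairs. Other count normalizations were not run, since the table holds no counts. Depth is unknown, so its limits on low genes could not be given.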

Other observations

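Outside the 44 lncRNAs, 248 lncRNA genes of lower level were tested, 119 with a log2 fold change above 0 and 129 below, with a median of -0.01. AV356131, named after its value was seen, was the only one of them that passed limma, and it was higher in YOD1 libraries. Epb41l4aos, a lower snoRNA host, had 1.15, 1.43 and 2.31 FPKM in controls and 6.30, 7.17 and 3.77 FPKM in YOD1 libraries. All its YOD1 values lay above all controls. Its log2 fold change was 1.35 with an SE of 0.24 (limma adjusted p = 0.0501).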
